A study of Mus musculus with 24 samples.

Results

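The early response of wild-type bone marrow to benzo[a]pyrene (BP) was read from 2 arrays of marrow collected 6 h after BP and 3 arrays of marrow after oil, 5 of the 24 arrays of the series. All mice of these 5 arrays were female, wild-type C57BL/6j and 6 weeks old. They received BP at 50 mg/kg, or olive oil, by intraperitoneal injection. The labels give no collection time for the oil group. Each array held Cy3-labelled total RNA, described as 9 samples pooled, beside a Cy5-labelled reference that pooled marrow of wild-type mice given oil. The labels do not say whether the replicates came from separate mice or days, so the spread between replicates may be technical. Unless stated otherwise, p values rest on the spread between replicate arrays pooled over the groups of the series, not of these 5 arrays alone.

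BP is a polycyclic aromatic hydrocarbon of combustion smoke and tar. It binds the aryl hydrocarbon receptor (AhR), which waits in the cytoplasm with chaperones such as HSP90 and p23. The bound receptor enters the nucleus, pairs with ARNT and switches on genes for its own metabolism and repression, among them Cyp1a1, Cyp1b1, Tiparp and Ahrr. CYP1A1 and CYP1B1 oxidise BP to diol epoxides and quinones that damage DNA and cells. Bone marrow produces blood cells and holds monocytes, neutrophils, B-cell progenitors, red-cell precursors and megakaryocytes, and the lymphoid progenitors are known to be lost after such hydrocarbons.

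Values are log ratios, log2(Cy3/Cy5), after background correction and loess normalization within each array. A log2 change is the mean log ratio of the BP arrays minus that of oil replicates 2 and 3, given with its standard error from one limma fit over 23 arrays and 10 groups. A gene was called at a Benjamini-Hochberg adjusted p under 0.05 over all 24378 genes tested. Oil replicate 1 was left out of this fit. Its Cy5 channel was low in marrow transcripts such as Mpo, Cd79a and S100a8 and held liver ones, while Hbb-bt, at 5.4, lay within the range of the other arrays. The scaled Cy5 level of Mpo, the myeloperoxidase of granulocyte precursors, was -0.13 there, against 5.46 to 7.06 on every other array. The Cy3 channel of that array carried marrow RNA (Mpo at 6.54) together with liver transcripts (Alb at 4.97, against -2.17 or less elsewhere), so it is given beside the results as a Cy3 level. A scaled Cy3 level is the log2 processed Cy3 signal relative to the 75th percentile of that array. Cy3 was well above background for 63.3% and 67.5% of probes on the BP arrays, and for 61.9%, 84.8% and 45.8% on oil replicates 1, 2 and 3.

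At 6 h after BP, 15 of 38 cytokine genes, 10 of 38 NF-kB feedback and target genes, 12 of 33 immediate early genes and 5 of 12 genes of the AhR battery were called higher, and 5 of 25 platelet genes were called lower. With slide as a random block, described next, 1, 1, 0, 0 and 0 of them were called. In all, 939 genes were called (3.85% of those tested), of which 359 rose (1.47%) and 580 fell (2.38%). Of the rises 96 exceeded 1 on the log2 scale, and 31 of the falls went below -1. The split between rises and falls depended on the scaling: processed signals gave 45 rises and 5 falls, and Cy3 alone gave 162 rises and 111 falls. Both BP arrays shared 1 slide that held nothing else, while oil replicates 2 and 3 were each on another slide, so slide and treatment cannot be told apart. With slide as a random block only Tnf and Nfkbiz kept an adjusted p under 0.05 (0.0281 each), and 1888 genes had an unadjusted p under 0.05.

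The BP arrays resembled each other, with a Pearson correlation of log ratios across genes of 0.762. The 2 oil arrays correlated at 0.137. Genes are not independent replicates, and both BP arrays shared a slide. In 44.1% of all genes both BP log ratios lay beyond both oil log ratios on one side, so a lack of overlap says little about any one gene. The Cy3 level gives another view, since it can include oil replicate 1. Both BP arrays lay above all 3 oil arrays for 175 of the 359 rises (13.6% of all genes with a positive change did so) and below all 3 for 217 of the 580 falls (28.4% of all genes with a negative change did so).

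Of the 15 largest rises 5 were cytokine or chemokine genes. Of 38 measured members of that list 15 rose and none fell, and the median log2 change of the list was 0.53, against 0.02 over all genes. Cxcl2, a chemokine that draws neutrophils, had log ratios of 4.31 and 4.23 on the BP arrays, against 0.23 and 0.64 on the oil arrays. It rose 14.3-fold (log2 change 3.83 ± 0.55, adjusted p = 0.00212), the highest value among the 15 largest rises. In Cy3 it stood at 2.84 and 2.72 after BP and 2.29, -1.40 and -1.32 after oil. Oil replicate 1 therefore lay near the BP arrays for Cxcl2 and far above the other oil arrays.

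Tnf, the inflammatory cytokine of activated macrophages, had the smallest adjusted p of all genes. Its log ratios were 2.90 and 2.71 after BP, against 0.35 and 0.39 after oil, a 5.42-fold rise (log2 change 2.44 ± 0.21, adjusted p = 4.07e-05). The scaled Cy3 level was 3.95 and 3.64 after BP and 1.61, -0.37 and 0.15 after oil, so both BP arrays stood clear of all 3 oil arrays. Cxcl10, a chemokine for T cells that interferon and NF-kB induce, had log ratios of 3.26 and 1.84 after BP, against -0.28 and 0.25 after oil. The Cy3 level stood at 4.53 and 3.06 after BP and 1.16, 0.49 and 1.27 after oil. It rose by 2.56 ± 0.35 (log2, adjusted p = 0.00161), and the BP arrays differed from each other by more than the oil arrays did.

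Il1a, an alarm cytokine, rose by 2.26 ± 0.26 (log2, adjusted p = 0.000689). Only 1 of oil replicates 2 and 3 was well above background for Il1a. Cxcl3, a neutrophil chemokine close to Cxcl2, was not well above background on oil replicates 2 and 3. From the Cy3 signals it was at least 4.31-fold higher after BP (adjusted p of the log ratios 0.00489). In the Cy3 channel Cxcl3 was at -0.54 and -0.59 after BP and at -1.96, -4.29 and -5.02 after oil. Csf1, the growth factor of macrophages, rose by 0.98 ± 0.12 (adjusted p = 0.000771). The remaining called members were Ccl4, Ccl3, Il6, Cxcl16, Osm, Ccl9, Ccl2, Ccl5 and Il10. Ccl3, a chemokine of monocytes, rose by 1.78 (log2), but its Cy3 level was 5.79 and 5.00 after BP and 5.48 in oil replicate 1, against 3.35 and 3.58 in the other oil arrays. Il1b had a log2 change of 2.21 with an adjusted p of 0.0776 and was not called.

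**Figure D1:**
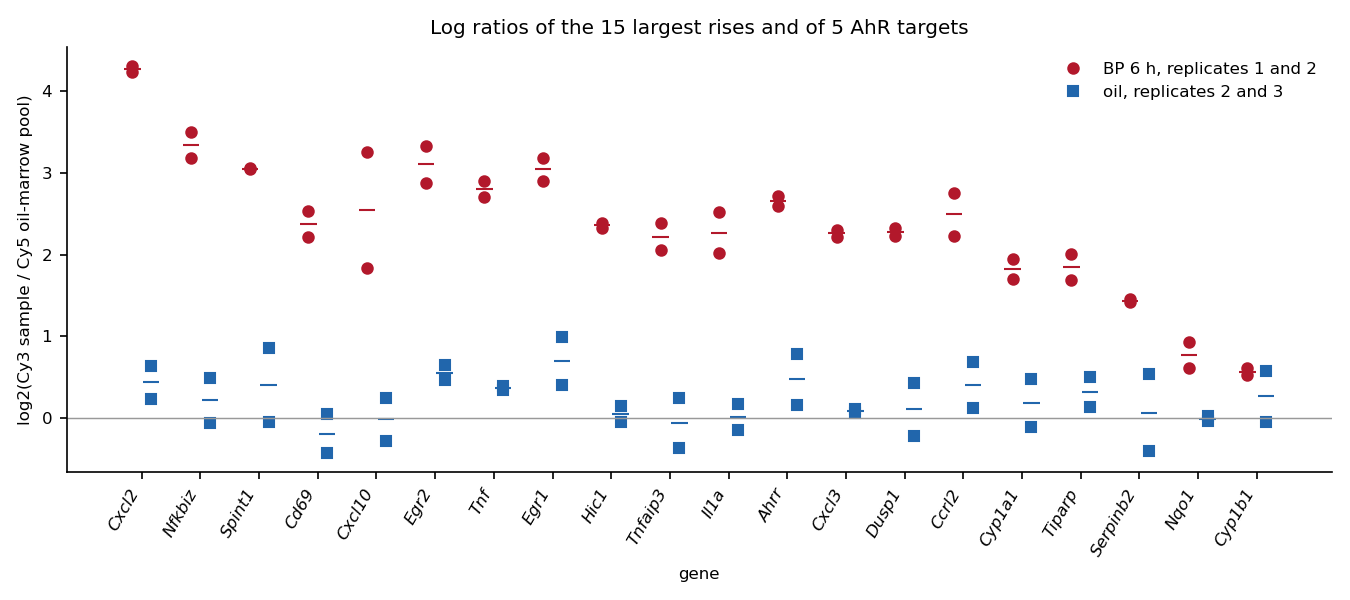
Log ratio log2(Cy3 sample / Cy5 oil-marrow pool) of each array for the 15 largest rises and for 5 AhR targets. Circles are BP replicates 1 and 2, squares are oil replicates 2 and 3, and short lines are group means. The 15 rises range from 2.09 (Ccrl2) to 3.83 (Cxcl2) as a difference of means, and the oil arrays of Cyp1b1 overlap its BP arrays.

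NF-kB is a transcription factor that inflammatory signals release from its inhibitor IkB-alpha, and its targets include the genes that shut it off again. Of 38 measured genes of the NF-kB feedback and target list 10 rose and none fell, with a median log2 change of 0.36. Nfkbiz, an inducible nuclear cofactor of NF-kB, had log ratios of 3.50 and 3.18 after BP, against -0.06 and 0.49 after oil. It rose 8.71-fold (log2 change 3.12 ± 0.34, adjusted p = 0.000689). In the Cy3 channel it was at 4.45 and 4.09 after BP and 2.72, 1.09 and 1.53 after oil, with both BP arrays above all 3 oil arrays.

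Tnfaip3, the ubiquitin-editing enzyme A20 that ends NF-kB signalling, rose by 2.28 ± 0.37 (log2, adjusted p = 0.00433). Nfkbia, which encodes IkB-alpha itself, rose by 1.35 ± 0.20 (adjusted p = 0.00212). The Cy3 level of Nfkbia was 7.17 and 6.98 after BP and 6.77, 5.04 and 5.67 after oil. Socs3, a brake on cytokine receptors, rose by 1.29, Ier3, a survival gene, by 1.59, and Zc3h12a, a nuclease that degrades cytokine mRNA, by 1.21 (adjusted p 0.00072, 0.00206 and 0.0125). Ptgs2, Clec4e, Gadd45b and Slfn2 were the other called members. For Ptgs2 the spot of oil replicate 2 was left out as an outlier, so its control value rests on oil replicate 3 alone.

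The promoters of 3 of these rising genes are shown because each holds a match to an NF-kB site (GGG, any 2 bases, then TTTCC, on either strand). The sequences are the 250 bases before the start of each gene, 5′ to 3′, from RefSeq on GRCm38.p6, with the matches in capitals. For Cxcl2 (chr5:90903649-90903898, plus strand) the capitals also mark matches to the XRE core GCGTG, the letters that AhR and ARNT bind. Cxcl3 lies at chr5:90785851-90786100 on the plus strand and Nfkbia at chr12:55492648-55492897 on the minus strand.
Cxcl2: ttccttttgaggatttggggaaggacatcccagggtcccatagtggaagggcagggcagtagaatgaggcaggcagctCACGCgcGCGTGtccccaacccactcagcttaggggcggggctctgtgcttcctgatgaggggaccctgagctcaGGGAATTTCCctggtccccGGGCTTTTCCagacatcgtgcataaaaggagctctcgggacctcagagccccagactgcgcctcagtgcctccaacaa
Cxcl3: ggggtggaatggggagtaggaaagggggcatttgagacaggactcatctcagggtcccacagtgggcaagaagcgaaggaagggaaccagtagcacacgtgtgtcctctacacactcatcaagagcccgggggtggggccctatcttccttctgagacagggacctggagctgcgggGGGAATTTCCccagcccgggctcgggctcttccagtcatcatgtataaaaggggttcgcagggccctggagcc
Nfkbia: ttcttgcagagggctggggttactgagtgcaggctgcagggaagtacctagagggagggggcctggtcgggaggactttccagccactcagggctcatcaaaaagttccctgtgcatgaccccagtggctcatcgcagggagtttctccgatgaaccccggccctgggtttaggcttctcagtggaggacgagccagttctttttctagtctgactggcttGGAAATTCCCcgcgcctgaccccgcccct
The pair of NF-kB matches in Cxcl2 start 97 and 78 bases before the gene start, the match in Cxcl3 starts 73 bases before it, and that in Nfkbia 29 bases before it. A match to this motif occurs in 1.41% of the 32851 promoter windows of the table. Counted by gene, with a match in any window of the gene, it occurs in 7 of 26 matched genes of the cytokine list. By that count it occurs in 4 of 34 of the NF-kB list and in 4 of 12 of the 15 largest rises that had a window. The count by gene and the share by window are unlike measures. A match is a description of the letters and not a measured binding site.

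Immediate early genes are transcribed within minutes of a signal, without new protein synthesis. Of 33 measured members 12 rose and none fell, and the median change of 0.65 was the highest of all 34 lists examined. Egr2, a zinc finger transcription factor, had log ratios of 3.34 and 2.88 after BP, against 0.47 and 0.65 after oil. It rose by 2.55 ± 0.30 (log2, adjusted p = 0.000689), and its Cy3 level was 3.45 and 2.99 after BP and 1.07, 0.49 and 0.93 after oil. Egr1, its relative, had log ratios of 3.19 and 2.90 after BP, against 0.41 and 0.99 after oil, and rose by 2.34 ± 0.63 (adjusted p = 0.0464). Oil replicate 1 matched the BP arrays for Egr1 in the Cy3 channel, with 5.01 and 4.63 after BP and 4.88, 1.98 and 2.28 after oil.

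Nr4a1, an orphan nuclear receptor, rose by 1.64, Csrnp1 by 1.26, Ier2 by 1.07 and Atf3, a stress transcription factor, by 1.03 (log2). Their adjusted p values ran between 0.0041 and 0.00554. Maff, a small MAF protein, rose by 1.51 (adjusted p = 0.00633), and Dusp1, the phosphatase that switches off MAP kinases, by 2.17 ± 0.42 (adjusted p = 0.0102). Junb, Jun, Fosb and Dusp4 were also called. Fos had a log2 change of 1.68 with an adjusted p of 0.0657. Cd69, an early activation marker of lymphocytes that is in none of the response lists, rose by 2.57 ± 0.54 (adjusted p = 0.0149), and its Cy3 level was 3.42 and 3.03 after BP and 1.40, 0.25 and 0.63 after oil. Spint1, a serine protease inhibitor, rose by 2.65 ± 0.39, Hic1, a transcriptional repressor, by 2.31 ± 0.34, and Ccrl2, an atypical chemokine receptor, by 2.09 ± 0.26.

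Among the 15 largest rises, both BP arrays lay above all 3 oil arrays in Cy3 for 14, Egr1 being the exception. Of all genes with a positive change 13.6% did so. The 15 were chosen by log ratios that use the same Cy3 signals, so this count is a description and no separate support. Cy3 alone with oil replicate 1 kept as a control called 6 of the 15, namely Nfkbiz, Tnf, Cxcl10, Egr2, Cd69 and Ccrl2. That setting called 62 genes higher (0.254% of those tested) and 11 lower (0.0451%). The log ratios with that array kept called 5 of the 15, and over all genes 48 higher (0.197%) and 131 lower (0.537%).

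The list counts changed with the control arrays too. With oil replicate 1 kept, the log ratios called 5 cytokine genes, 0 NF-kB genes, 2 immediate early genes, 3 AhR battery genes and 5 interferon-stimulated genes higher. Cy3 alone called 9, 7, 8, 1 and 2 in the same order, and with oil replicate 1 kept it called 4, 4, 3, 0 and 2. None of these 3 settings called a member of these 5 lists lower.

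**Figure D2:**
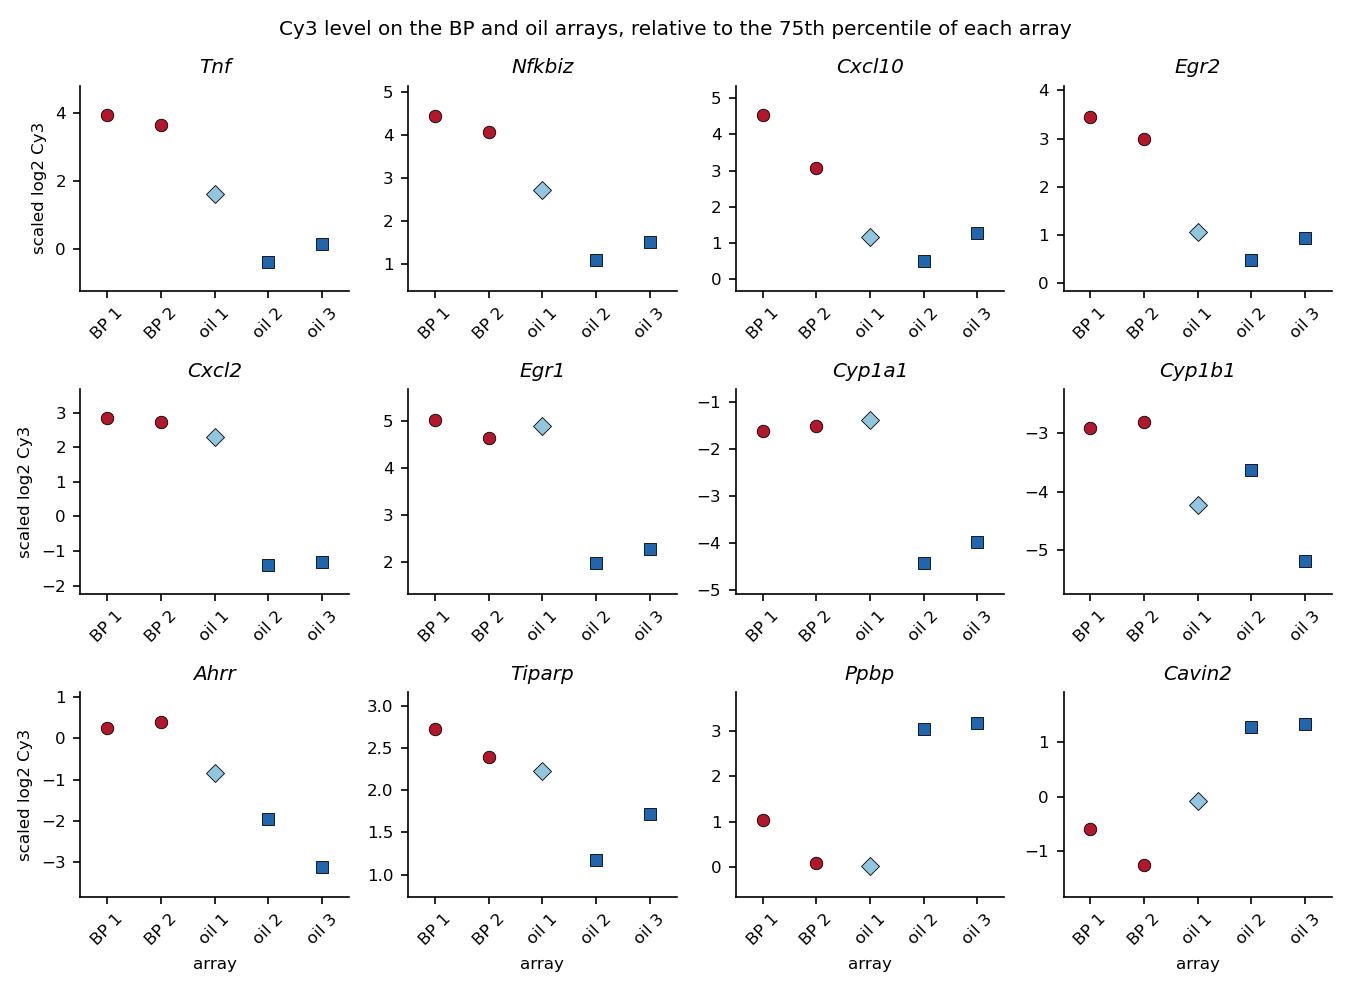
Scaled log2 Cy3 level (log2 processed Cy3 relative to the 75th percentile of the array) of 12 genes on each BP and oil array, with a separate axis for each gene. Circles are BP arrays, the diamond is oil replicate 1 and squares are oil replicates 2 and 3. Tnf, Nfkbiz, Cxcl10 and Egr2 stand clear of all 3 oil arrays, whereas oil replicate 1 lies with the BP arrays for Egr1, Cyp1a1 and Ppbp.

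Part of the AhR battery rose. Of 12 measured members 5 were called, all upward, and the median log2 change was 0.43. Cyp1a1, the monooxygenase that oxidises BP, had log ratios of 1.71 and 1.94 after BP, against -0.11 and 0.48 after oil (log2 change 1.64 ± 0.31, adjusted p = 0.00963). It was not well above background on oil replicates 2 and 3, and from the Cy3 signals it was at least 2.6-fold higher after BP. Its Cy3 level was -1.62 and -1.53 after BP and -1.39, -4.43 and -3.97 after oil. Oil replicate 1, which carried liver RNA, was as high as the BP arrays, so the comparison of Cyp1a1 rests on oil replicates 2 and 3 and on the Cy5 pool.

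Ahrr, the repressor that competes with AhR for ARNT, had log ratios of 2.60 and 2.72 after BP, against 0.16 and 0.78 after oil. It rose by 2.19 ± 0.33 (log2, adjusted p = 0.00229), and its Cy3 level was 0.26 and 0.38 after BP and -0.83, -1.96 and -3.12 after oil. Tiparp, a mono-ADP-ribosyltransferase that shuts AhR off, had log ratios of 2.01 and 1.69 after BP, against 0.14 and 0.50 after oil, and rose by 1.53 ± 0.17 (adjusted p = 0.000689). Serpinb2, plasminogen activator inhibitor 2, rose by 1.37 ± 0.30 and Nqo1, a quinone reductase, by 0.78 ± 0.16 (adjusted p 0.0201 and 0.0138). For Ahrr, Tiparp, Serpinb2 and Nqo1 both BP arrays lay above all 3 oil arrays in Cy3.

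Cyp1b1, the monooxygenase that also forms diol epoxides, did not pass against oil. Its log ratios were 0.53 and 0.61 after BP, against -0.04 and 0.57 after oil (log2 change 0.31 ± 0.23, adjusted p = 0.525). Cyp1b1 was well above background on only 1 of oil replicates 2 and 3, so the lack of a call says little. Read against the Cy5 pool alone, its BP mean of 0.57 was called (adjusted p = 0.0207) and its oil mean of 0.26 was not (adjusted p = 0.347), and the difference between the groups is the test just given. In Cy3 it stood at -2.92 and -2.81 after BP and -4.22, -3.64 and -5.19 after oil, with both BP arrays highest. In the authors' deposited table the difference for Cyp1b1 is 1.71 and that for Cyp1a1 is 3.51. Processed signals gave 2.06 for Cyp1b1 (adjusted p = 0.216) and Cy3 alone gave 1.55 (adjusted p = 0.112). The other members, Gsta1, Aldh3a1, Cyp1a2, Cyp2s1, Gstm1 and Il22, had changes of -0.34 to 0.55 and none was called. Gsta1, Aldh3a1, Cyp1a2, Cyp2s1 and Il22 were well above background on only 1 of oil replicates 2 and 3. Gsta1, Aldh3a1 and Cyp1a2 were well above background on neither BP array and Il22 on 1, so their changes say little about their level after BP.

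The promoters of Ahrr, Cyp1a1 and Tiparp are shown because each holds the XRE core, in capitals on either strand, within the 250 bases before the gene start. They lie at chr13:74292332-74292581 (minus strand), chr9:57697363-57697612 (plus strand) and chr3:65528197-65528446 (plus strand) of GRCm38.p6 and are from RefSeq. In Ahrr the last run of capitals marks an NF-kB match.
Ahrr: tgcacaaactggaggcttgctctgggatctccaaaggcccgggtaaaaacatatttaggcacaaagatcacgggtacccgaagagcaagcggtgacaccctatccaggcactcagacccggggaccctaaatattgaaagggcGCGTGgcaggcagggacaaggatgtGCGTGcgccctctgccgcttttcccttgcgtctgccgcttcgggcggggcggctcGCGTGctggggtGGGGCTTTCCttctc
Cyp1a1: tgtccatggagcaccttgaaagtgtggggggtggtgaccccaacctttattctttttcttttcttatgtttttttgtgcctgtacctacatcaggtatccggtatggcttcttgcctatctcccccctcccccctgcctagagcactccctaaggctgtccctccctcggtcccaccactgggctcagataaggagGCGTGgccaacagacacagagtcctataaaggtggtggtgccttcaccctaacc
Tiparp: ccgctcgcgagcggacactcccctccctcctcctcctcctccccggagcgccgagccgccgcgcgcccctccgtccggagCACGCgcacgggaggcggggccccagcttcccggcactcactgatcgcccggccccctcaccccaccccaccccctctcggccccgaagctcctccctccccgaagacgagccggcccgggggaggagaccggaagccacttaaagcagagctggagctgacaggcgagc
The Ahrr window has 3 XRE cores, starting 107, 82 and 27 bases before the gene start. The single cores of Cyp1a1 and Tiparp start 54 and 170 bases before it. This short motif occurs in 28.2% of all promoter windows. Counted by gene, with a match in any window of the gene, it occurs in 5 of 13 matched genes of the AhR battery. By that count it occurs in 7 of the 12 largest rises with a window. The same count was 26 of 54 for ribosomal protein genes and 1 of 21 for T and NK cell genes. A share by gene and a share by window are unlike measures, so no excess is read from them. The enhancer of mouse Cyp1a1 is known to lie farther upstream, outside the window shown.

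The receptor and its partners stayed without a call except for 1 chaperone. Of 11 measured members of the AhR complex list none rose. Hsp90aa1, the inducible HSP90, had log ratios of -1.22 and -1.32 after BP, against -0.11 and -0.37 after oil, and fell by 1.03 ± 0.22 on the log2 scale (adjusted p = 0.0188). The scaled Cy3 level was 5.49 and 5.33 after BP and 6.35, 5.97 and 6.25 after oil. Ahr had a change of 0.54 ± 0.20 (adjusted p = 0.151), Arnt of -0.07, Hsp90ab1 of -0.09 and Ptges3, which encodes p23, of -0.44 (adjusted p = 0.211). Arnt2, Hif1a and the coactivators Ncoa1, Ncoa2 and Ncoa3, had changes of -0.29 to 0.16. Of 18 measured heat shock genes Hsp90aa1 was the one called.

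Interferon-stimulated genes, which act against viruses, gave 6 rises and no fall among 43 measured, with a median change of 0.30. Over all genes 1.47% rose and 2.38% fell. Oasl2 rose by 1.88 ± 0.33 (log2, adjusted p = 0.00567), with log ratios of 2.27 and 1.34 after BP, against 0.27 and -0.42 after oil. Irf7, the transcription factor that amplifies interferon production, rose by 1.06 ± 0.19, Gbp2, a guanylate-binding protein, by 0.90 ± 0.17 and Zbp1, a nucleic acid sensor, by 0.87 ± 0.20. Mx1 and Ifi44 were called at 0.74 and 0.78. Both were well above background on 1 of oil replicates 2 and 3, and Cy3 alone put their change at -0.05 and -0.23. BP replicate 1 exceeded BP replicate 2 for Oasl2, Gbp2, Ifi44 and Zbp1, and the order was the opposite for Irf7.

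The promoter of Cxcl10 (chr5:92348890-92349139, minus strand, GRCm38.p6, RefSeq) is shown because it holds an ISRE match (GAAA, any 2 bases, then GAAA, on either strand), in capitals, which starts 213 bases before the gene start.
Cxcl10: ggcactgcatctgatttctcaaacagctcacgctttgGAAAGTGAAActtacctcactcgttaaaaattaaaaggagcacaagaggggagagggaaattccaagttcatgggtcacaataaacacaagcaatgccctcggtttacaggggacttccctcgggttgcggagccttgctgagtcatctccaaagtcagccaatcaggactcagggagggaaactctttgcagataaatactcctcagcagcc
This motif occurs in 2.98% of all promoter windows. Counted by gene, with a match in any window of the gene, it occurs in 15 of 34 matched genes of the interferon list, which is an unlike measure.

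Some markers of myeloid cells were also called. Of 27 measured genes of macrophage activation 6 rose and 1 fell (1.47% and 2.38% of all genes did). Msr1, a scavenger receptor, rose by 1.04 ± 0.15 (adjusted p = 0.00212), Gpnmb, a lysosomal glycoprotein, by 1.47 ± 0.27 and Cd14, the co-receptor for endotoxin, by 1.66 (adjusted p = 0.0472). Clec4e, Apoe and Chil3 were the other rises. Retnla, a secreted protein of alternatively activated macrophages, had log ratios of -2.00 and -2.24 after BP, against -0.72 and -0.26 after oil, and fell by 1.63 ± 0.33 on the log2 scale (adjusted p = 0.0136). The Cy3 level stood at -3.13 and -3.17 after BP and -2.53, -1.37 and -0.83 after oil.

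Of 28 measured markers of monocytes and macrophages 1 rose, the Fc receptor Fcgr1 (0.94 ± 0.20, adjusted p = 0.0174), and 1 fell, Nr1h3 (by 0.68 on the log2 scale). The median Cy3 level of that list was 1.67 and 1.65 after BP and 1.15, 1.04 and 1.33 after oil. Of 28 neutrophil markers 3 rose, Il1r2, Chil3 and S100a9. A positive change was seen in 17 of the 28 and in 12877 of all 24378 genes, so that count says little about neutrophils. With oil replicate 1 kept the log ratios called none of the 28. Over all genes 1.47% were called higher and 2.38% lower. The median Cy3 level of the neutrophil list was 4.56 and 4.43 after BP and 3.57, 3.61 and 3.99 after oil. Chil3 and S100a9 were saturated in Cy3 on 3 of the 5 arrays. The part of these marker levels in the cytokine result was not tested. In these bulk samples, a change in the number of cells of a type and a change in RNA per cell cannot be told apart.

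**Figure D3:**
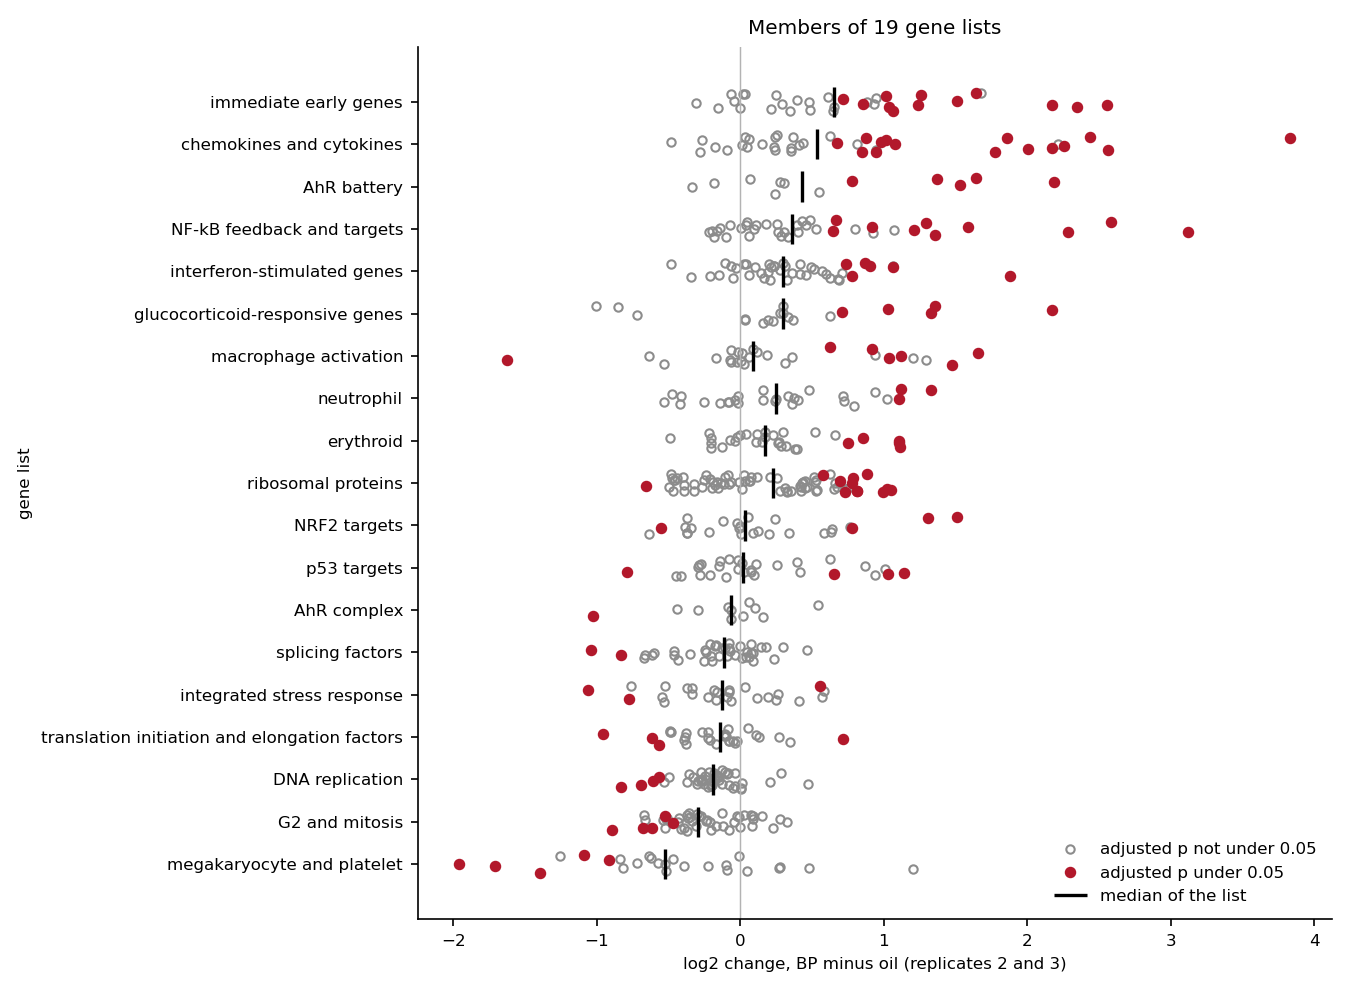
Log2 change, BP minus oil replicates 2 and 3, of every measured member of 19 gene lists. Filled points have an adjusted p under 0.05, open points do not, and vertical bars are list medians. Medians run from 0.65 for immediate early genes to -0.52 for megakaryocyte and platelet genes.

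Megakaryocyte and platelet genes had the lowest median change of the 34 lists. Of 25 measured markers of megakaryocytes and platelets 5 fell and none rose, and the median change was -0.52. Ppbp, the chemokine precursor of platelet granules, had log ratios of -0.04 and -0.93 after BP, against 1.65 and 1.31 after oil. It was 3.89 times lower after BP (log2 change -1.96 ± 0.48, adjusted p = 0.0304). Treml1, a receptor of platelet granules, had log ratios of 0.23 and -0.47 after BP, against 1.27 and 1.29 after oil (log2 change -1.40 ± 0.35, adjusted p = 0.0333). For both genes the BP arrays lay near the Cy5 pool and oil replicates 2 and 3 lay above it.

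In Cy3, Ppbp was at 1.04 and 0.09 after BP and 0.02, 3.05 and 3.17 after oil. Oil replicate 1 was as low as BP replicate 2, so the fall of Ppbp rests on oil replicates 2 and 3. Cavin2, a coat protein of caveolae that platelets also carry, had log ratios of -0.78 and -1.35 after BP, against 0.82 and 0.48 after oil (log2 change -1.71 ± 0.34, adjusted p = 0.0113). In the Cy3 channel it was at -0.60 and -1.27 after BP and -0.08, 1.29 and 1.34 after oil, with both BP arrays lowest. Alox12, platelet lipoxygenase, fell by 1.09 on the log2 scale, and Mmrn1, a granule protein, fell by 0.92. In Cy3, oil replicate 1 lay below both BP arrays for Treml1 (0.47 and -0.28 after BP, -0.81 in oil replicate 1), Alox12 (-1.58 and -2.44 after BP, -2.80 in oil replicate 1) and Mmrn1 (-1.63 and -2.29 after BP, -2.72 in oil replicate 1). The median Cy3 level of the list was -0.12 and -0.78 after BP and -0.81, 0.46 and 0.88 after oil, so the falls of these genes rest on oil replicates 2 and 3. Across the list the median log ratio to the Cy5 pool was 0.05 and -0.36 on the BP arrays, against 0.33 and 0.35 on oil replicates 2 and 3. The log ratios with oil replicate 1 kept called 1 of the 25 lower, Cy3 alone called 1, and Cy3 with that array kept called 0.

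The remaining large falls were of mixed function. Hyal2, a hyaluronidase, had log ratios of -1.25 and -1.19 after BP, against 0.02 and 0.13 after oil (log2 change -1.29 ± 0.16, adjusted p = 0.000771). Its Cy3 level was -0.29 and -0.15 after BP and 0.99, 0.74 and 1.03 after oil, below all 3. Ankrd37, a hypoxia-responsive ankyrin protein, fell by 1.19 ± 0.24 on the log2 scale (adjusted p = 0.0122). Sult2a8, a liver sulfotransferase, fell by 1.24, but with oil replicate 1 kept its change was 0.04. Tefm and Dmac2l, which serve mitochondria, fell by 1.13 each, as did the tRNA-modifying enzyme Trmt12 and the zinc finger gene Zfp518a, and Cmtr2, an mRNA cap methyltransferase, fell by 1.10. The other 3 of the 15 largest falls, ENSMUST00000088552, AK153595 and A430068E04Rik, have no described function here. In Cy3 both BP arrays lay below all 3 oil arrays for 9 of the 15, as did 28.4% of all genes with a negative change. The 15 were chosen by log ratios that use the same Cy3 signals, so this count is a description. Cy3 alone called none of the 15.

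**Figure D4:**
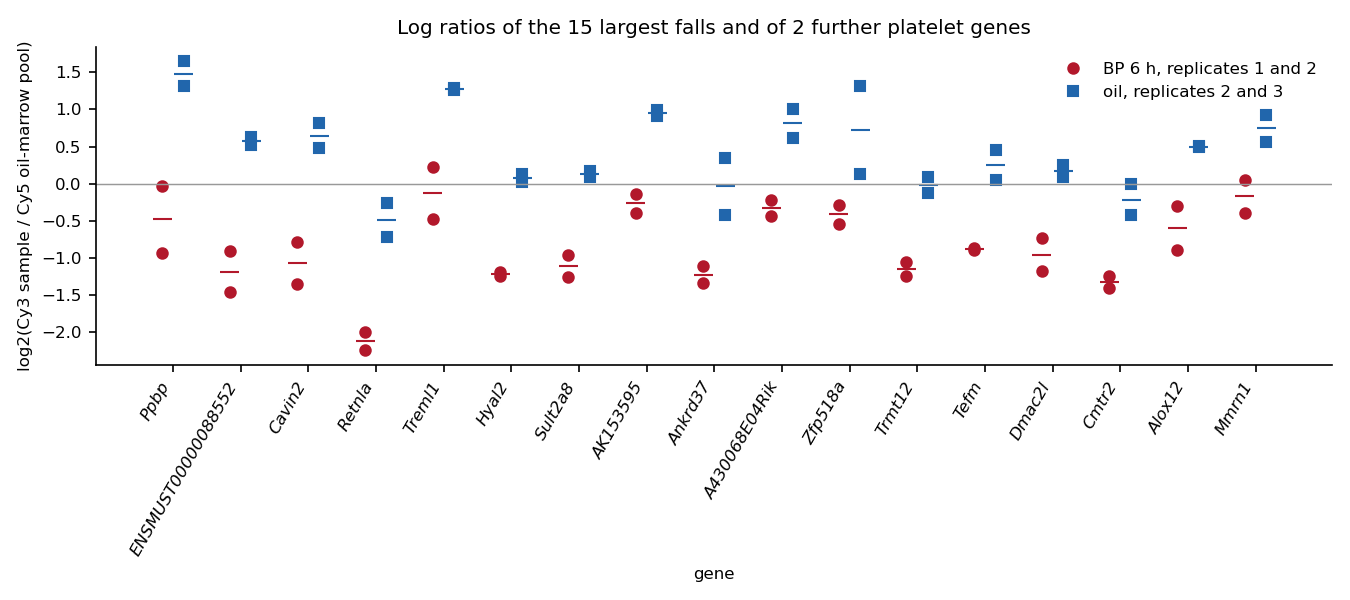
Log ratio log2(Cy3 sample / Cy5 oil-marrow pool) of each array for the 15 largest falls and for Alox12 and Mmrn1. Circles are BP replicates 1 and 2, squares are oil replicates 2 and 3, and short lines are group means. For Ppbp and Treml1 the oil arrays lie above 1 while the BP arrays lie near or below 0.

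Some genes of cell division fell in the log ratios. Of 46 measured genes of G2 and mitosis 5 fell (2.38% of all genes did) and none rose, with a median of -0.29. Ska2, of the kinetochore, fell by 0.90 ± 0.17 on the log2 scale and Cdk1, the kinase that starts mitosis, fell by 0.68 ± 0.13 (adjusted p 0.00778 and 0.0108). Ska1, Cenpf and Mad2l1 fell by 0.47 to 0.62. Of 46 genes of DNA replication 4 fell, Pole2, Rfc5, Prim1 and Hells, with a median of -0.19. In Cy3 alone, Cdk1, Ska1 and Prim1 had changes of 0.02, 0.10 and 0.10, so their direction was not kept there. The median Cy3 level of the G2 and mitosis list was 2.663 and 2.764 after BP and 1.84, 2.347 and 2.74 after oil. For DNA replication it was 2.777 and 2.755 after BP and 2.495, 2.822 and 3.162 after oil. Cy3 alone and processed signals called no member of either list.

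Ribosomal protein genes gave 11 rises and 1 fall among 74 measured (median 0.23). Rps14, Rps16, Rpl37a, Rpl13 and Rplp2 were among the rises. Their probes were each saturated in Cy3 on at least 1 of the 5 arrays, so no fold is given. Cy3 alone called no ribosomal protein gene. Translation factors gave 1 rise, Eif1 (0.71), and 3 falls, Eif1ax, Eif2s1 and Eif5b, among 30. Of 40 splicing factors 2 fell, Srsf1 by 0.83 and Hnrnpc by 1.04 on the log2 scale. The shares called over all genes were 1.47% higher and 2.38% lower. A positive change was seen in 6 of the 30 translation factors and 13 of the 40 splicing factors, against 12877 of all 24378 genes. With so few calls, little can be said about either list. Cy3 alone called no translation factor and no splicing factor. Hnrnpc and Eif2s1 had changes of 0.05 and 0.10 in Cy3 alone.

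Calls in the stress lists went in both directions, and their counts stand against 3.85% called over all genes. Among 26 NRF2 targets, the genes of the response to electrophiles, Fth1, the ferritin heavy chain, rose (adjusted p = 0.00195, no fold given because its probe was saturated in Cy3 on 1 of the 5 arrays), Maff and Nqo1 rose as given above, and Prdx1, a peroxidase, fell by 0.55. Among 30 p53 targets, the genes of the response to DNA damage, Pmaip1 rose by 1.14, Cdkn1a, the inhibitor of cyclin-dependent kinases, by 1.03 and Bbc3 by 0.65, while Rrm2b fell by 0.79. Pmaip1 and Bbc3 promote apoptosis and were the 2 calls among 30 apoptosis regulators. The p53 list as a whole had a median of 0.02, as had all genes. Of 26 genes of the integrated stress response Slc3a2 rose by 0.56, and Asns and Psph, enzymes of amino acid synthesis, fell by 0.78 and 1.06 (log2).

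Of 19 measured glucocorticoid-responsive genes 5 rose, namely Nfkbia, Dusp1, Il1r2, Per1 and Cdkn1a (1.47% of all genes rose). All 5 are also members of other lists given here, so they are no separate result. Per1 and Bhlhe40 were the 2 rises among 18 clock genes, at 0.71 and 0.77. Collection time of day is not given by the labels for either group, and its part in these values was not tested.

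For other cell types of the marrow the number of calls differed between lists, and 3.85% of all genes were called. Of 25 markers of pro-B and pre-B cells 1 rose, with a list median of -0.07, and of 26 markers of mature B cells 1 rose, with a median of -0.06. No marker of MHC class II (11 measured) or of dendritic cells (19) was called, with medians of 0.50 and 0.23. Of 31 erythroid genes 5 were called upward. Of these, Hba-a1, Hba-a2 and Hbb-bt were saturated in Cy3 on all 5 arrays, so no fold is given. Alas2, the first enzyme of heme synthesis, was saturated on 2 of the 5 and is given without a fold. Bpgm rose by 0.75 (log2). With oil replicate 1 kept, the sign of both changes turned. Among 29 markers of T and NK cells Il2rb rose by 1.08, Klrd1 by 0.77 and Ccl5 by 1.08, and Zap70 fell by 0.72. For Il2rb and Ccl5 the oil arrays lay below the Cy5 pool, at means of -1.20 and -1.05, and the BP arrays near it, at -0.11 and 0.03. Among 20 markers of eosinophils, basophils and mast cells Il5ra fell by 0.62 on the log2 scale and Prg2 rose, with a probe saturated in Cy3 on 1 of the 5 arrays. Of 32 stromal, 20 fat and muscle and 27 stem and progenitor genes none, none and 1 were called.

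Read directly against their own Cy5 pool of oil-treated marrow, the BP arrays had 3844 genes (15.8%) whose mean log ratio differed from 0, 1593 above (6.53%) and 2251 below (9.23%). This reading needs no oil array. It leaves out the spread of oil-treated marrow, and with no dye swap it includes any dye bias. Oil replicates 2 and 3, which had the same treatment as the pool, had 1162 such genes (4.77%) by the same test, 519 above (2.13%) and 643 below (2.64%). Of the 359 rises 251 were also called above 0, and of the 580 falls 480 were also called below 0. The BP mean lay farther from 0 than the oil mean for 252 of the rises and 482 of the falls, and the platelet genes Ppbp and Treml1 were among those for which it did not.

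The list medians in this direct reading were 1.03 after BP and 0.26 after oil for immediate early genes. They were 0.46 after BP and 0.03 after oil for cytokines, and 0.35 after BP and 0.09 after oil for the NF-kB list. For the AhR battery they were 0.39 after BP and 0.04 after oil. For platelet genes the order differed, at -0.09 after BP and 0.33 after oil.

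Other groups of wild-type mice received DMBA or TCDD, also AhR ligands, but were sampled at 12 h. Times differ and the oil arrays are shared, so the values stand side by side with no comparison. The log2 change of Cyp1a1 was 1.64 ± 0.31 at 6 h of BP, 1.69 ± 0.29 at 12 h of DMBA and 0.44 ± 0.29 at 12 h of TCDD, each as fitted against oil arrays on which the gene was not well above background. That of Ahrr was 2.19, 1.17 and 0.02 in the same order, and that of Spint1 was 2.65, 2.19 and 0.87. For Tnf the changes were 2.44, -0.14 and 0.48, for Nfkbiz 3.12, -0.02 and 1.20 and for Cxcl2 3.83, 0.41 and 0.82. Other rises differed in this, with 2.57, 0.27 and 2.00 for Cd69, 1.64, 0.17 and 1.69 for Nr4a1, and 2.34, -0.06 and 0.03 for Egr1. For Ppbp the changes were -1.96, -0.16 and -1.93, for Treml1 -1.40, -0.43 and -1.27, and for Retnla -1.63, -0.44 and -0.27.

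The authors' deposited table gives a difference of log ratios for the same comparison. Its heading names both BP arrays and all 3 oil arrays. Across 24378 genes its values correlated at 0.701 with the log2 changes given here and at 0.33 with those that keep oil replicate 1. A regression of the authors' deposited values on the processed log ratios of the 5 deposited arrays gave weights of 0.47 and 0.482 for BP replicates 1 and 2, and of -0.002, -0.368 and -0.322 for oil replicates 1, 2 and 3 (R squared 0.764 over 41174 probes). The log ratios of oil replicate 1 as deposited thus carried almost no weight in that column. The authors' deposited table lists Tnf at 2.45, Nfkbiz at 3.11, Cxcl2 at 3.83, Ahrr at 3.05, Ppbp at -1.85 and Retnla at -2.80.

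**Figure D5:**
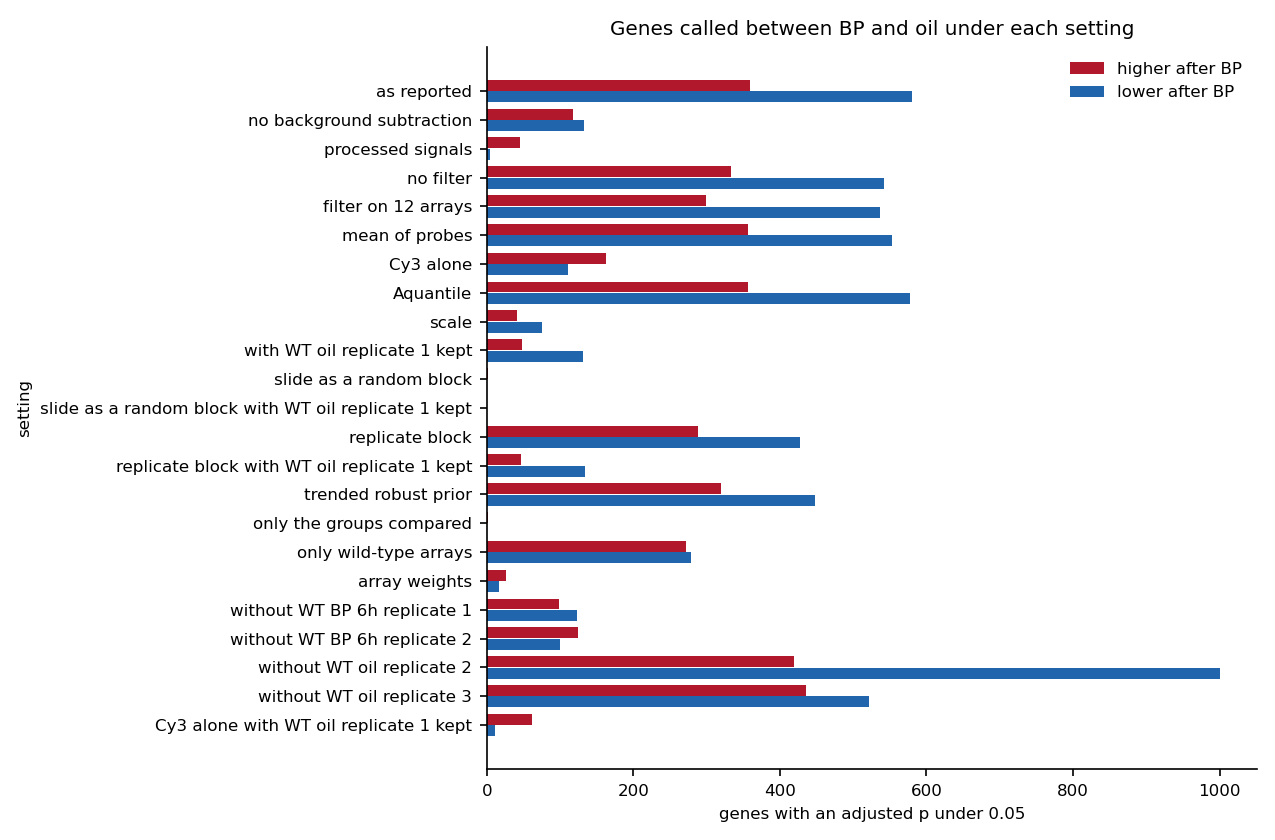
Number of genes with an adjusted p under 0.05 between BP and oil under each setting, on a linear axis from 0. Upper bars of each pair are genes higher after BP and lower bars genes lower after BP. Counts run from 0 with slide as a random block and oil replicate 1 kept to 1420 in all without oil replicate 2, against 939 as reported.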

How the data were processed

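The gene lists, the groups compared and the genes singled out were chosen with earlier results of these data known. Per the file headers, each deposited per-array file gives unnormalized intensity (mean signal of a spot and median of its local background) in both channels. Feature Extraction 9.1.3.1 made the files of all 5 arrays used in the comparison, and 10.7.3.1 those of some other groups. A processed intensity, already corrected for background and dye by that program, and a flag for spots well above background (13 SD) are also deposited. The code of its background method is 5 on the BP arrays and oil replicate 1, and 7 on oil replicates 2 and 3. A deposited table of comparisons gives differences of log ratios between groups, read here as log2. Its log base and centring are not stated by the authors, and the column used has a median of 0. Limma is named in the submitters' processing notes.

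Files were read in R 4.3.3 (data.table, version 1.17.8). Background was corrected with normexp (offset 50) and log2(Cy3/Cy5) was normalized by loess within arrays in limma 3.58.1 (statmod 1.5.0). Control spots had weight 0, and outlier spots were dropped. RefSeq annotation of GRCm38.p6 named 24844 probes through their accession, 6045 through a symbol and 1810 through a synonym, and 8475 kept the name in the file. Each gene was represented by its brightest probe, provided Cy3 was well above background on at least 3 of 23 arrays. The fit used 10 group means and all arrays but oil replicate 1, with limma's moderated statistic and Benjamini-Hochberg adjustment over all genes. It was also run on simulated log ratios with known changes. Those had independent errors and no slide effect, so that run cannot bear on slide. Bounds ("at least") were taken from Cy3 after loess and Aquantile, with dim arrays raised to the lowest signal that was well above background.

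Genes were named by rule. The rule took Cyp1a1, Cyp1b1, the 15 largest rises and the 15 largest falls without overlap and well above background, up to 6 members of each list with 2 or more calls, up to 3 called the other way, and all members of the AhR lists. It gave 162 genes, and any other is named after its values were seen. One of them is not reported here. Replicate numbers did not pair the arrays. Alternatives are given in the closing section. The number of arrays limits the precision.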

Additional observations from a re-analysis of the deposited data

Results flagged for a closer look

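A list of liver genes stood at a median percentile of 94.4 among the probes in the Cy3 channel of oil replicate 1, and at 99.5 in its Cy5 channel. On every other array of the series the list stood at 33.8 or less in Cy3 and 37.4 or less in Cy5. This is a signal outside the comparison, in an array that the log ratios leave out. The median Cy3 level of the list was -4.80 and -5.31 on the BP arrays, and 3.53, -1.96 and -5.14 on oil replicates 1, 2 and 3. Cyp1a1, which liver can express, was at -1.39 in Cy3 on oil replicate 1, and the part of liver RNA in that value was not tested.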

How the results depend on the processing

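The count of 939 genes called between BP and oil depended on the processing. It was 250 with no background subtraction, 50 with processed signals, 273 with Cy3 alone, 117 with scale normalization between arrays and 42 with array weights. It was 550 with only wild-type arrays in the fit, and 1 with only the groups compared (2772 genes had an unadjusted p under 0.05). With oil replicate 1 kept it was 179, and 73 with Cy3 alone and oil replicate 1 kept, a setting chosen after seeing the data. Slide as a random block gave 2 calls (consensus correlation 0.567), and 0 with oil replicate 1 kept (consensus correlation 0.821, 377 genes at an unadjusted limma p under 0.05). Leaving out single arrays gave 222 to 1420 calls, the lowest without BP replicate 1 (222) and BP replicate 2 (224), and the highest without oil replicate 2. It stayed within 1.5 times under Aquantile, the mean of probes, a trended robust prior, no filter, a filter on 12 arrays and without oil replicate 3. A replicate block gave 715 calls, and 180 with oil replicate 1 kept. Deviations of same-numbered BP and oil arrays correlated at 0.0665 and 0.0882, so the numbers were not taken as pairs. The 3844 genes called for BP against its own Cy5 pool became 1932 with processed signals, 583 with slide as a random block, and 1628 to 1683 without one BP array. All 359 rises and 580 falls kept their sign with slide as a random block. That fit uses the same log ratios, and both BP arrays lie alone on 1 slide. It could hardly turn a sign, so the kept signs say nothing about an effect of slide. With oil replicate 1 kept, 322 of the rises and 533 of the falls kept their sign. Among the 162 named genes, 28 that were called changed sign under at least one setting, in 59 cases. All 59 were under settings that keep oil replicate 1 or use Cy3 alone. Named genes that were not called are outside this count. Some of them changed sign too. Arnt was at 0.10 with processed signals (-0.07 as reported), and Hif1a at -0.14 with slide as a random block (0.02 as reported).

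With oil replicate 1 kept, the log2 changes were 0.0418 for Sult2a8, 0.393 for Prdx1, -0.193 for Pmaip1, -0.0285 for Il1r2, -0.0723 for Rpl32, -1.33 for Chil3, -0.437 for Clec4e, 0.22 for Nr1h3, -0.244 for Prg2, -0.421 for Alas2, -0.534 for Bpgm, -0.242 for Klrd1 and -0.255 for Ccl5. With the replicate block and oil replicate 1 kept, they were 0.108 for Sult2a8, 0.525 for Prdx1, -0.415 for Pmaip1, -0.0831 for Nr4a1, -0.255 for Il1r2, -0.136 for Rpl32, -1.57 for Chil3, -0.608 for Clec4e, 0.323 for Nr1h3, -0.315 for Prg2, -0.59 for Alas2, -0.68 for Bpgm, -0.14 for Hbb-bt, -0.0525 for Il2rb, 0.0698 for Zap70, -0.343 for Klrd1 and -0.426 for Ccl5. With slide as a random block and oil replicate 1 kept, the values were 0.209 for Prdx1, -0.015 for Rpl32, -0.817 for Chil3, -0.272 for Clec4e, 0.086 for Nr1h3, -0.00969 for Prg2, -0.144 for Alas2, -0.351 for Bpgm, -0.114 for Klrd1 and -0.0595 for Ccl5. With Cy3 alone, the changes were -0.0509 for Mx1, -0.228 for Ifi44, 0.0513 for Hnrnpc, 0.097 for Eif2s1, 0.293 for Rpsa, 0.104 for Prim1, 0.0154 for Cdk1 and 0.103 for Ska1. With Cy3 alone and oil replicate 1 kept, the changes were 0.172 for Prdx1, 0.0484 for Hnrnpc, 0.361 for Eif2s1, -0.128 for Rpl37a, 0.283 for Rpsa, 0.126 for Pole2, 0.131 for Prim1, 0.276 for Cdk1, 0.0974 for Ska1, 0.113 for Mad2l1 and 0.0165 for Zap70.

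The sign changes listed for called genes had adjusted p values of 0.372 or more. Their cause was not tested beyond the Cy5 content of oil replicate 1 given in the report. Oil replicates 2 and 3 had another background setting than the BP arrays, and its part in the values of dim genes was not tested.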

Other observations

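The following genes were named after their values were seen. Ifnb1, which encodes interferon beta, had log ratios of 2.41 and 0.80 after BP, against -0.25 and -0.08 after oil, a log2 change of 1.77 (adjusted p = 0.0149). Its Cy3 level was -0.23 and -2.85 after BP and -3.16, -2.32 and -5.16 after oil, so BP replicate 2 lay below oil replicate 2. Prdm1, the transcription factor of plasma cells, was the mature B-cell marker that rose, by 1.09 (adjusted p = 0.00485). Its Cy3 level was -0.51 and -1.05 after BP and -2.46, -1.50 and -2.03 after oil, with both BP arrays above all 3 oil arrays.

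Markers with 1 call in their list were Enpp2 among pro-B and pre-B genes (0.58), Hoxb4 among stem and progenitor genes (0.43), Trf among liver genes (0.80) and Gfap among nerve and glia genes (-0.96). For Enpp2 and Hoxb4 the BP log ratios lay within 0.06 of 0 and the oil log ratios below it.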
